A study of Rattus norvegicus with 44 samples.

Results

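Ctx8 and L2.3 are rat neural precursor clones, each a cell line grown from a single founder, and the submitters describe both as multipotential, a term for precursors that can give rise to neurons and to glia. They were compared 3 days after the mitogen FGF2 had been withdrawn. The comparison used 6 of the 44 arrays of the series, 3 cultures of Ctx8 and 3 of L2.3, picked by the clone and the day in the sample titles. At day 0 the cells were dividing in FGF2 on a laminin and poly-lysine coat. For days 3 and 7 they were moved to B27-supplemented medium without FGF2, with a little fetal bovine serum for survival. Days 0 and 7 of the same clones, 12 further arrays, gave the values before and after. The replicates of a group were sister cultures of a single clone, so the p-values below measure the spread between cultures and not the spread between independently derived clones. The labels do not state the strain, the age or the brain region from which the clones were derived.

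In the developing brain, FGF2 keeps precursors dividing, and its removal lets them leave the cell cycle and differentiate. Neurons then switch on tubulins, stathmins and RNA-binding proteins, and excitatory neurons of dorsal origin and inhibitory neurons of ventral origin use different transcription factors. Oligodendrocyte precursors carry the PDGF receptor Pdgfra and the factors Olig1 and Olig2 before they make myelin lipids and proteins. Astrocytes are known by the filament protein Gfap and by glutamate transporters.

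Values are intensities of Affymetrix probe sets after RMA, and differences are Ctx8 minus L2.3 on the log2 scale. A gene passed the test when limma's adjusted p, over all 12749 genes, was below 0.05. Array medians lay between 28.0 and 28.6 in Ctx8 and between 27.4 and 27.6 in L2.3. Arrays of the same group correlated at 0.997 to 0.998 over all probe sets, and the 9 pairs of a Ctx8 and an L2.3 array at 0.972 to 0.974. The number of arrays limits the precision. No detection call came with the values, so an intensity at or below 16.3, the 40th percentile of all intensities, is called near background here. Where a group was near background, the size of its difference from the other depends on that background.

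The markers of the labelled cell type were present. The summed intensity of 6 neural precursor markers was 18494 to 18699 in the Ctx8 arrays and 13250 to 13418 in the L2.3 arrays, with 4 markers higher and 1 lower in Ctx8. Summed over 10 neuron markers, Ctx8 read 4397 to 4423 and L2.3 read 5997 to 6140, with 3 markers higher and 6 lower in Ctx8. Among them Stmn2 and Tubb3 were far lower in Ctx8 and Gap43 was higher, so the sum does not speak for every marker. For 5 oligodendrocyte precursor markers the sums were 4981 to 5122 in Ctx8 and 1920 to 2143 in L2.3. For 7 oligodendrocyte markers they were 8477 to 11608 and 6029 to 7978. In each of these sets 3 markers were higher and 0 lower in Ctx8. Mbp made up much of the oligodendrocyte sums in both clones and did not pass the test, so those sums do not speak for every marker. The sums of 8 astrocyte markers overlapped, at 7518 to 7762 and 7647 to 8148, although 3 markers were higher and 3 lower in Ctx8. Of 9 microglia markers 8 were near background in both clones, as were all 7 endothelial markers, 6 of 8 mesenchymal markers and 5 of 6 Schwann cell and neural crest markers. RNA was taken from whole cultures, so fewer cells of a type and less RNA per cell cannot be told apart in any of the results.

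At day 3 the clones differed widely. Of the 12749 genes, 5514 passed the test, 43.3% of all, with 2706 (21.2%) higher and 2808 (22.0%) lower in Ctx8. The counts for gene lists below are to be read beside these shares. At least 2-fold differences were found for 787 genes (6.17%), of which 325 (2.55%) were higher in Ctx8 and 462 (3.62%) higher in L2.3. The 3 arrays of Ctx8 and the 3 of L2.3 did not overlap for 6732 genes (52.8%), with 25.8% of all genes higher and 27.0% lower in Ctx8. The median difference of all genes was -0.01. In 103 of the 787 genes the lower group was near background.

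**Figure D1:**
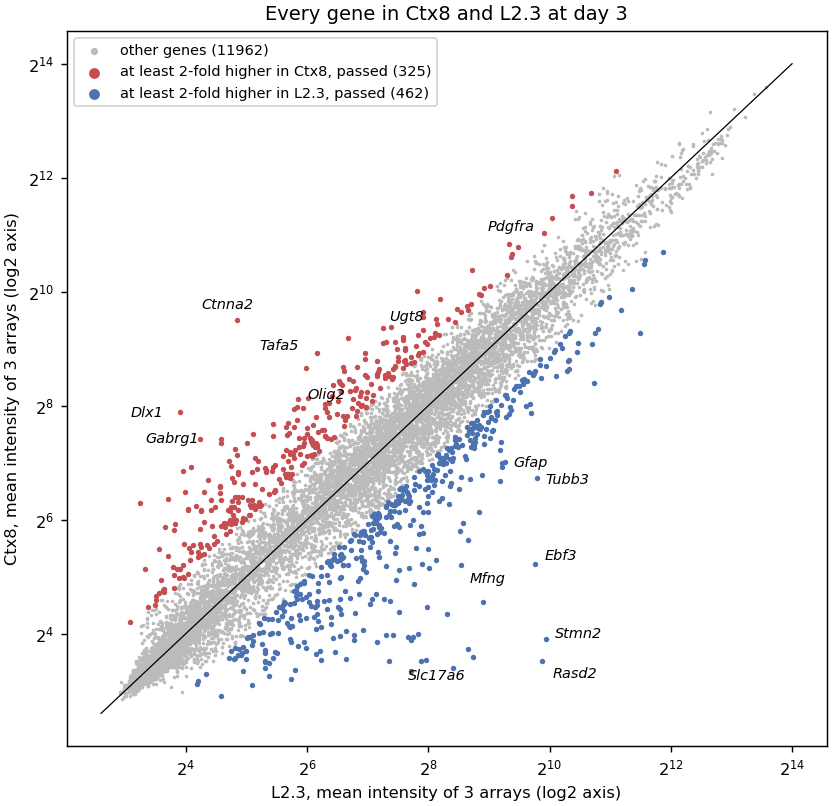
Mean intensity of each gene in L2.3 (horizontal) and in Ctx8 (vertical) at day 3, both on log2 axes, with 3 arrays a clone. The 325 red genes passed the test and were at least 2-fold higher in Ctx8, the 462 blue genes were at least 2-fold higher in L2.3, and the genes farthest from the diagonal lay on the L2.3 side.

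Several of the 15 largest differences in favour of L2.3 were in genes known from young neurons. Rasd2, a small GTP-binding protein known from the striatum, read 10.6, 11.7 and 11.8 in Ctx8 and 923, 914 and 987 in L2.3, a difference of -6.37 ± 0.13 (SE). Stmn2, a stathmin that binds tubulin in growing axons, read 14.6, 15.2 and 14.9 in Ctx8 against 871, 1050 and 1026 in L2.3. Every Ctx8 array was near background for both genes, and every L2.3 array was far above it. The difference for Stmn2 was -6.04 ± 0.13, with an adjusted p of 2.37e-28. Ebf3, a helix-loop-helix factor of maturing neurons, was not at background in Ctx8: its arrays read 34.2, 36.0 and 42.1, against 832, 821 and 951 in L2.3 (-4.54).

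Several genes of the excitatory programme were on the same side. Slc17a6, the vesicular glutamate transporter VGLUT2, read 10.4, 13.0 and 11.5 in Ctx8 and 275, 231 and 238 in L2.3 (-4.42). Neurod1, a proneural helix-loop-helix factor, read 11.2, 8.8 and 10.4 against 223, 233 and 171 (-4.36). All Ctx8 arrays were near background for both genes. Nhlh1, another helix-loop-helix factor of newborn neurons, differed by -3.81, and Neurod6 by -2.12 with L2.3 at only 33.9 to 49.0. The homeobox factor Shox2, found in excitatory neurons of the brainstem and spinal cord, read 10.2, 10.8 and 10.3 in Ctx8 and 334, 317 and 369 in L2.3 (-5.02). Lhx2, a LIM homeobox factor of the dorsal forebrain, was closer, at 164, 199 and 206 against 360, 364 and 362 (-0.94), and Bcl11a differed by -1.18. Of 14 measured glutamatergic and dorsal factors, 7 were lower in Ctx8 and 1 was higher, with a median of -0.28 against -0.01 for all genes. Over all genes 22.0% were lower and 21.2% higher. Of the 14 factors 7 were near background in both clones, so their median rests in part on dim genes.

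The exception among the dorsal factors was Emx2, a homeobox gene of the cortical precursor zone. It read 61.4, 89.5 and 84.5 in Ctx8 and 9.1, 10.1 and 9.2 in L2.3 (3.03 ± 0.22, adjusted p = 7.05e-14). L2.3 was near background, and Emx2 already differed at day 0 (2.63). Of 10 measured Hox and other posterior genes 3 were lower in Ctx8 and none higher (1 was higher at an unadjusted limma p below 0.05), and 7 were near background in both clones.

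The microtubule genes split between the clones. Of 27 measured, 13 were lower and 10 higher in Ctx8, and 4 did not pass. Tubb3, the neuron-specific tubulin, read 87.9, 125 and 105 in Ctx8 and 931, 877 and 837 in L2.3 (-3.07 ± 0.08). Its probe set is of a kind that can bind transcripts of several genes. A second Tubb3 probe set was near background in both clones, at means of 12.3 in Ctx8 and 12.9 in L2.3. It did not pass (-0.07, limma's adjusted p = 0.701). Dcx, the microtubule binder of migrating neurons, was present in both clones, at 411, 478 and 460 against 878, 869 and 855 (-0.95, adjusted p = 1.4e-06). Lower in Ctx8 were also the axon growth protein Dpysl5 (-2.85), the neurofilament genes Nefm (-2.06) and Ina (-1.44), and Stmn4 (-0.78).

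Other axonal and tubulin genes were higher in Ctx8. Gap43, the growth cone protein, read 975, 1011 and 986 against 447, 456 and 464 (1.12), so that Ctx8 stood above L2.3 in every array although Stmn2 was at background. Dpysl4, a relative of Dpysl5, differed by 1.62 in the opposite direction to it, and the tubulin Tubb2a by 1.25. Map2, the dendritic microtubule protein, was slightly higher in Ctx8 (0.38). Mapt, the tau gene, did not pass: its arrays read 318, 280 and 265 in Ctx8 and 270, 267 and 329 in L2.3. A second, dimmer Mapt probe set did pass, as lower in Ctx8 (-0.54).

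Neuronal RNA-binding proteins were divided too, with 5 of 12 (41.7%) lower and 3 (25.0%) higher in Ctx8 and a median of -0.09. Over all genes 22.0% were lower and 21.2% higher. Elavl2 of the Hu family, which stabilises neuronal transcripts, read 55.5, 68.0 and 61.0 in Ctx8 and 398, 404 and 344 in L2.3 (-2.64). Its relatives Elavl3 (-0.83) and Elavl4 (-0.82) differed less. Khdrbs3, a splicing regulator, was among the 15 largest differences in favour of Ctx8, with 540, 625 and 586 against 89.6, 98.0 and 117 (2.53). Rbfox3, whose product is the neuronal antigen NeuN, was higher in Ctx8 (1.45), at 50.3 to 67.6 against 20.3 to 23.5.

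Among 25 synaptic vesicle genes, 9 (36.0%) were higher and 6 (24.0%) lower in Ctx8, against 21.2% and 22.0% of all genes. The complexins, which clamp vesicle fusion, went opposite ways: Cplx1 read 33.6, 36.0 and 36.4 in Ctx8 and 243, 263 and 268 in L2.3 (-2.87), whereas Cplx2 read 133, 158 and 160 against 54.6, 48.9 and 47.2 (1.58). Snap25, a core fusion protein, was lower in Ctx8 (-1.07), and Sv2a, a vesicle membrane protein, was higher (0.68). Of 22 ion channel genes 5 (22.7%) were higher in Ctx8, near the 21.2% of all genes. Lower were 2 (9.09%, against 22.0%), and 11 were near background in both clones. Cacna2d1, an accessory calcium channel subunit, read 44.8, 59.7 and 58.6 against 250, 235 and 234 (-2.15).

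**Figure D2:**
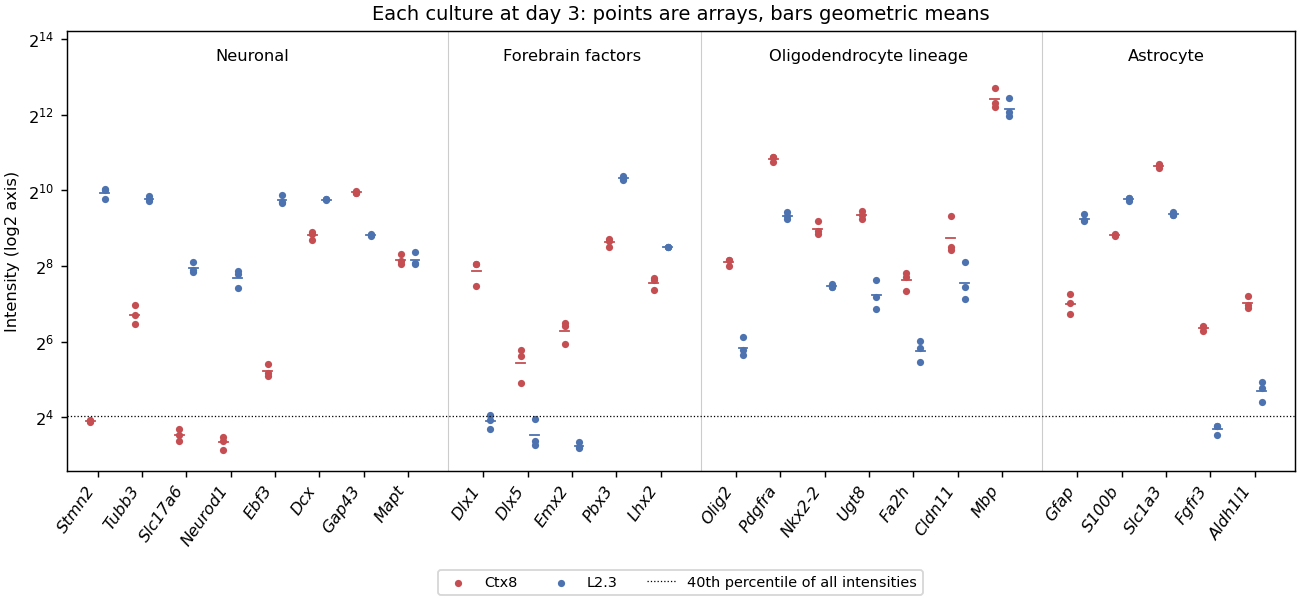
Intensity of each of the 3 Ctx8 arrays (red) and the 3 L2.3 arrays (blue) at day 3 on a log2 axis for named genes in 4 groups, with geometric means as bars and 16.3 as the dotted line. Ctx8 is at or below the line for Stmn2, Slc17a6 and Neurod1, L2.3 is at or below it for Dlx5, Emx2 and Fgfr3 and close to it for Dlx1, and the arrays of Mapt and Mbp overlap.

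Both Dlx genes of the ventral forebrain list that were measured were higher in Ctx8. Dlx1, a homeobox factor of inhibitory interneuron precursors, read 178, 267 and 267 in Ctx8 and 16.6, 12.8 and 15.3 in L2.3 (3.98 ± 0.17, adjusted p = 7.01e-20). Dlx5, of the same family, was dimmer, at 30.2, 49.1 and 55.2 against 10.4, 15.5 and 9.6 (1.91). The clones did not overlap for either gene, and L2.3 was near background. Of 11 measured ventral factors 5 were higher and 2 lower in Ctx8. Those higher included Nr2f2 (1.03) and Meis2 (0.48). Those lower were Pbx3, a homeodomain partner factor at 366, 409 and 421 against 1253, 1252 and 1346 (-1.69), and Zfhx3 (-2.82), which had differed by -2.29 at day 0.

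The enzymes that make GABA were still close to background. Gad1 read 14.7, 19.9 and 21.0 in Ctx8 and 9.5, 7.1 and 8.6 in L2.3 (1.14), and Gad2 differed by 0.32 with no array above 15.8. The call for Gad2 was lost when Ctx8 replicate 2 or 3 or L2.3 replicate 2 was left out, with adjusted p of 0.0555, 0.0569 and 0.134. At day 7 Gad1 averaged 98.9 in Ctx8 and 8.7 in L2.3. Of 16 measured genes of GABA handling and interneuron types, 3 were higher and 2 lower in Ctx8, near the shares over all genes. Calb1, a calcium-binding protein of interneuron subtypes, read 49.4, 70.0 and 55.8 against 10.6, 13.7 and 13.5 (2.21), a difference that was turned at day 7 (-2.46). Reln, the secreted guide of cortical layering, was higher in L2.3 (-1.37).

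Of 25 transmitter receptors 7 (28.0%) were higher and 2 (8.0%) lower in Ctx8, against 21.2% and 22.0% of all genes, and 13 were near background in both clones. Gria2, the AMPA receptor subunit that limits calcium entry, read 2834, 2716 and 2693 in Ctx8 and 1386, 1364 and 1425 in L2.3 (0.98). Gabrg1, a GABA-A receptor subunit, read 198, 176 and 137 against 32.1, 18.2 and 21.7 (2.85). Gria2 was well above background in both clones, whereas the Gabrg1 arrays of L2.3 were close to it. The cannabinoid receptor Cnr1 (1.66) and the kainate receptor subunits Grik2 (1.90) and Grik5 (1.32) were higher in Ctx8 as well. Of the 2 members higher in L2.3 the nicotinic subunit Chrna7 was the furthest apart (-2.51). Outside this list, Htr3a, the serotonin-gated channel, was higher in L2.3, at 14.5, 18.0 and 15.2 against 240, 227 and 218 (-3.85).

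Oligodendrocyte precursor genes were higher in Ctx8. Of 16 measured, 12 were higher by limma and none lower, also at an unadjusted p below 0.05 (0 lower), with a median of 0.95 against -0.01 for all genes. Olig2 read 285, 287 and 257 in Ctx8 and 54.5, 69.2 and 50.1 in L2.3 (2.27 ± 0.18, adjusted p = 4.07e-13). Pdgfra, the receptor that precursors need to survive and divide, read 1900, 1717 and 1888 against 603, 644 and 693 (1.51). Olig1 read 2827, 2943 and 2939 against 1233, 1385 and 1368 (1.13). For all 3 genes the clones stood apart and both were above background. Nkx2-2, a homeobox factor of the lineage, differed by 1.51 and the secreted C1ql1 by 1.69. Sox10, a factor of the whole lineage, was close to background (15.4 to 17.7 against 12.5 to 16.6) and did not pass. Vcan, a proteoglycan of these precursors, did not pass either, at 978, 1042 and 978 against 937, 917 and 971, although a second Vcan probe set did (0.26).

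Of 34 myelin genes 14 (41.2%) were higher and 4 (11.8%) lower in Ctx8, against 21.2% and 22.0% of all genes. Their median was 0.09, and 12 were near background in both clones. The enzymes of myelin lipids led. Ugt8, which makes galactosylceramide, read 655, 612 and 709 in Ctx8 and 117, 145 and 197 in L2.3 (2.14 ± 0.17). Fa2h, which hydroxylates the fatty acids of these lipids, read 224, 161 and 211 against 43.8, 56.7 and 64.6 (1.85). Gal3st1, which adds their sulfate, differed by 1.93. No L2.3 array reached a Ctx8 array for any of these enzymes. The tight junction protein Cldn11 read 638, 361 and 345 against 174, 140 and 274 (1.19), and Myrf, the factor that drives myelin genes, 171, 145 and 170 against 62.2, 34.3 and 89.3 (1.49). The L2.3 arrays scattered widely for both genes.

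Mbp, the major myelin basic protein, did not follow. It read 6757, 4709 and 5078 in Ctx8 and 4285, 4043 and 5539 in L2.3, overlapping ranges that did not pass the test (0.25, adjusted p = 0.303). Both clones had been at 26.8 and 40.7 on day 0, and by day 7 their means were 3782 and 1310 (1.53). Cnp (0.94) and Sirt2 (1.30), myelin-associated enzymes, were higher in Ctx8 at day 3. Cd9, a tetraspanin, was higher in L2.3 (-1.51) and had been so at day 0 (-1.23).

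Of 28 astrocyte genes 10 were higher and 4 lower in Ctx8, and 14 did not pass. Gfap, the intermediate filament, read 152, 106 and 130 in Ctx8 and 582, 594 and 663 in L2.3 (-2.26 ± 0.16, adjusted p = 2.57e-14). S100b, a calcium-binding protein, was lower in Ctx8 as well, at 454, 460 and 442 against 840, 890 and 897 (-0.95), as was the secreted matrix protein Sparcl1 (-1.18). In the other direction, the glutamate transporter Slc1a3 read 1545, 1664 and 1643 against 653, 685 and 651 (1.29). Aldh1l1, a folate enzyme used as an astrocyte marker, read 118, 147 and 126 against 21.0, 27.3 and 30.5 (2.32). The gap junction protein Gja1 (0.96), the water channel Aqp4 (0.58) and Fgfr3 (2.66) were higher in Ctx8, and the adult transporter Slc1a2 was near background in both clones. The call for Aqp4 was lost without Ctx8 replicate 1 or 3 or L2.3 replicate 1 or 3, at an adjusted p of 0.0514 to 0.0731 (limma).

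All 64 measured cell cycle genes were higher in L2.3. The 27 genes of DNA replication had a median difference of -0.83 and the 37 genes of mitosis a median of -1.17, where 22.0% of all genes were lower in Ctx8 by the same test. Ccnb1, the mitotic cyclin, read 423, 374 and 381 in Ctx8 and 1235, 1227 and 1281 in L2.3 (-1.67 ± 0.22). Kif20a, a motor of cytokinesis, read 256, 269 and 258 against 790, 840 and 831 (-1.65), and the checkpoint gene Mad2l1 98.3, 117 and 105 against 425, 331 and 354 (-1.79). The arrays of the clones did not overlap for these genes. A second Kif20a probe set, also above background, did not pass and lay the other way, at means of 189 in Ctx8 and 160 in L2.3 (0.24, limma's adjusted p = 0.203). Mki67, the proliferation antigen, differed less, at 279, 222 and 264 against 433, 450 and 429 (-0.79). The smallest difference was that of the sliding clamp Pcna, at 2226, 2317 and 2479 against 2825, 2805 and 2845 (-0.27).

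Before FGF2 was withdrawn the same genes lay close together. At day 0 the median of the 64 genes was 0.04 and 1 of them passed, in the direction of Ctx8. At day 7 the median was -1.24 and all 64 were lower in Ctx8. The levels at day 3 were below those of day 0 in both clones, as for Ccnb1, which averaged 2541 at day 0 and 392 at day 3 in Ctx8, and 2260 and 1247 in L2.3. The change of the clone difference between days 0 and 3 passed the test for 60 of the 64 genes, where 31.8% of all genes changed, 14.6% towards Ctx8 and 17.2% towards L2.3.

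**Figure D3:**
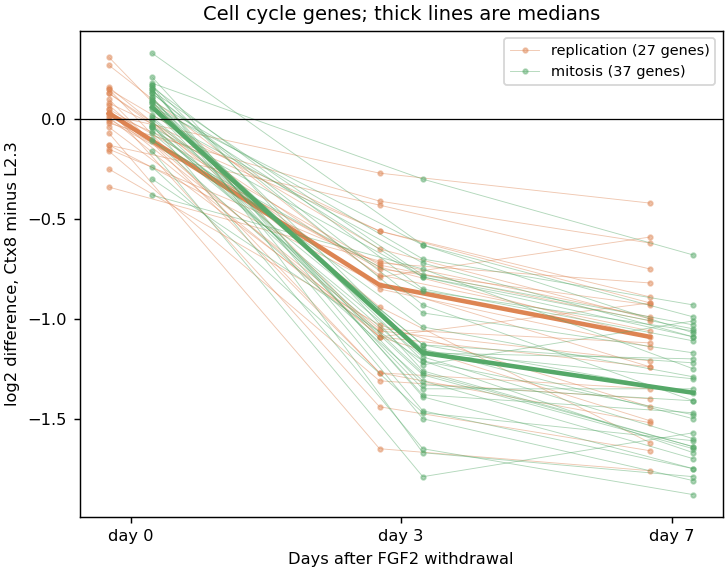
Difference between Ctx8 and L2.3 (vertical, log2) at days 0, 3 and 7 for 27 replication genes (orange) and 37 mitosis genes (green), a thin line a gene and a thick line the median. The genes lie between -0.38 and 0.33 at day 0 and all below 0 at days 3 and 7.

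Genes of mitosis are known to share promoter elements, a CCAAT box and, in many, a cell cycle homology region near the start site. RefSeq upstream sequences (build GRCr8) of 250 bases were matched for 32 of the 37 mitosis genes. CCAAT, on either strand, was in 71.9% of them, and in 35.5% of the 10519 promoters of genes in the fit. TTTGAA, the letters of the homology region, on either strand, was in 46.9% of the mitosis promoters and 10.8% of the promoters of genes in the fit, and over all 33469 promoters of the table the shares were 34.0% and 16.2%. For the 24 matched replication genes the shares were 58.3% and 4.17%. These are matches of letters, described without a test. The upstream windows of Ccnb1 and Kif20a, the largest differences among mitosis genes with a CCAAT match alone, and of Cdc20 and Pttg1, the largest with both, are shown because these genes stood together in L2.3 at day 3. Capitals mark CCAAT (or ATTGG) and TTTGAA (or TTCAAA).
Ccnb1: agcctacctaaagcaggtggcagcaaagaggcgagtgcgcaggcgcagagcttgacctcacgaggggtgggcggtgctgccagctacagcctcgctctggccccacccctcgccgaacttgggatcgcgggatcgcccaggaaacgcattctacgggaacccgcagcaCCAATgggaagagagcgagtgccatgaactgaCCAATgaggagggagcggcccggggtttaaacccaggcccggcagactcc
Kif20a: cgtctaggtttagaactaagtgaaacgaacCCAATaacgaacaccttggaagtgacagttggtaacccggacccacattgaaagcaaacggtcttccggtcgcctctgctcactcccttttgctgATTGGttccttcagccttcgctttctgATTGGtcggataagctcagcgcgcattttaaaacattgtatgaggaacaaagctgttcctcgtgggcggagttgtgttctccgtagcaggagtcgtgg
Cdc20: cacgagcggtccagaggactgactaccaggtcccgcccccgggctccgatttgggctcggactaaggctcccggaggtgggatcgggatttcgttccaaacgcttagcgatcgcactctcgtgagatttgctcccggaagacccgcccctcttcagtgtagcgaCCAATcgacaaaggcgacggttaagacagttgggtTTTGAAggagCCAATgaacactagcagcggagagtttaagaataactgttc
Pttg1: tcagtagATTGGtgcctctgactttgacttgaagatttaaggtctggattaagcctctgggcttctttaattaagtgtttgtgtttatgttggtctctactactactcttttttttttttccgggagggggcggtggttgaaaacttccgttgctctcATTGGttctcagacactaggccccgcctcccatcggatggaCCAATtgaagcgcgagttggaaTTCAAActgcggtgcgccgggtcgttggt

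These windows lie on chr2:33655226-33655475 (minus strand) for Ccnb1, chr18:26504172-26504421 (plus strand) for Kif20a, chr5:137255800-137256049 (minus strand) for Cdc20 and chr10:28406327-28406576 (minus strand) for Pttg1. Cdc20, an activator of mitotic protein breakdown, averaged 127 in Ctx8 and 312 in L2.3, and Pttg1, the securin that holds chromatids together, 303 and 732. Mad2l1, with the largest difference of the mitosis list, was not among the genes with a CCAAT match. That can also mean that no window was matched to it.

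Some regulators of the G1 phase lay on the other side from the replication and mitosis genes. Ccnd1, the cyclin that starts G1 progression, read 315, 341 and 333 in Ctx8 and 79.4, 94.2 and 114 in L2.3 (1.80 ± 0.15). Myc, a growth-promoting factor, read 406, 419 and 398 against 97.9, 97.8 and 92.2 (2.09). Both genes were thus higher in the clone whose mitosis genes were lower. Cdkn1c, an inhibitor of cyclin-dependent kinases, read 3576, 3110 and 3551 against 1906, 1959 and 2090 (0.78), and Cdkn2c (1.51) and Cdkn1b (0.57) were higher in Ctx8 too. Cdkn1a, the p53-induced inhibitor, was higher in L2.3 (-1.27), as was Ccne1, the cyclin of the step into replication and a member of the replication list (-1.44). Of 11 such inhibitors and growth arrest genes 5 were higher and 4 lower in Ctx8. Of 18 neural precursor genes 11 were higher and 3 lower in Ctx8, with a median of 0.49. This list shares members with other lists here, among them Ccnd1, Notch1 and Slc1a3, and it also holds Cd24. Sox2 differed by 0.52 and Vim by 0.47, while Nes, the precursor filament, did not pass (479, 488 and 504 against 411, 448 and 428). Cd24, a surface glycoprotein of young neurons, read 561, 680 and 616 against 2981, 2788 and 2858 (-2.22).

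Of 15 FGF receptors and ligands 4 (26.7%) were higher and 1 (6.67%) lower in Ctx8, against 21.2% and 22.0% of all genes, and 8 were near background in both clones. The receptor Fgfr2 read 220, 287 and 251 in Ctx8 and 47.6, 62.4 and 61.5 in L2.3 (2.15), and Fgfr3 78.1, 85.0 and 83.5 against 13.7, 11.6 and 13.7. Fgfr1 did not pass, at 120, 127 and 127 against 91.0, 114 and 104 (0.28, limma's adjusted p = 0.0581, or 0.0323 without L2.3 replicate 2), and Fgfr4 was near background in both clones. Of 16 targets and feedback genes of the pathway 6 were higher and 2 lower: the phosphatase Dusp6 was higher in Ctx8 (0.86), the inhibitor Spry1 was higher in L2.3 (-1.12).

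The Notch pathway holds precursors undifferentiated. Of its 19 measured genes 10 (52.6%) were higher and 3 (15.8%) lower in Ctx8, against 21.2% and 22.0% of all genes. The receptor Notch1 read 1442, 1250 and 1301 against 672, 694 and 664 (0.97), the ligand Dll3 differed by 1.58, and the target repressors Hes1 (1.30) and Hes5 (1.17) were higher in Ctx8. The clear exceptions were Mfng, a glycosyltransferase that modifies Notch receptors, and Hes6, which opposes Hes1. Mfng read 31.9, 39.5 and 39.2 in Ctx8 and 332, 391 and 392 in L2.3 (-3.34). Hes6 read 782, 843 and 846 against 2378, 2287 and 2320 (-1.50).

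Of 24 BMP and TGF-beta genes 11 (45.8%) were higher and 1 (4.17%) lower in Ctx8, against 21.2% and 22.0% of all genes. The median of the 24 was 0.03, and 9 were near background in both clones. The ligand Bmp4 read 818, 590 and 663 against 274, 244 and 329 (1.29), its antagonist Nog 44.3, 48.0 and 49.8 against 18.1, 21.5 and 16.5 (1.35), and the target Id3 2935, 3003 and 2842 against 1849, 1867 and 1845 (0.66). This ligand, this antagonist and this target were thus on the same side, which does not speak for every member of the list. Of 26 Wnt genes 9 (34.6%) were higher and 5 (19.2%) lower. Those higher were led by the secreted modulator Sfrp2, at 371, 387 and 405 against 106, 94.4 and 90.9 (2.00). They included the ligand Wnt7a (1.17) and the nuclear factor Tcf7l2 (1.00). Of 7 measured Sonic hedgehog genes 3 were higher, among them the receptor component Smo (0.27), a difference too small to pass a test against a minimum fold of 1.2.

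Adhesion molecules were among the groups with the largest share in favour of Ctx8. Of 30 measured, 22 were higher and 2 lower, with a median of 0.60, and 14 of the 22 also passed a test against a minimum fold of 1.2. Cdh11, a cadherin, read 309, 293 and 267 in Ctx8 and 82.0, 87.3 and 86.3 in L2.3 (1.76). The protocadherin Pcdh9 read 314, 259 and 274 against 64.9, 65.6 and 63.1 (2.12), and Astn1, a receptor for migration along glia, 945, 921 and 941 against 297, 295 and 289 (1.67). Lsamp (1.81), Negr1 (1.73) and the synaptic organiser Nlgn1 (1.74) were higher as well. The largest difference of all in favour of Ctx8 was that of Ctnna2, the neural alpha-catenin that links cadherins to actin, at 738, 730 and 710 against 24.8, 34.2 and 27.4 (4.67 ± 0.15).

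Of 21 laminin, basement membrane and integrin genes 11 (52.4%) were higher and 3 (14.3%) lower in Ctx8. Over all genes the shares were 21.2% and 22.0%. Those higher included the proteoglycan Agrn (1.02) and the laminin receptor subunits Itga7 (1.09) and Itga6 (0.70), while the collagen Col4a5 was higher in L2.3 (-1.50). Axon guidance genes were near the shares of all genes, with 7 of 30 higher and 6 lower. Ephb1, an ephrin receptor, read 322, 296 and 302 against 91.8, 102 and 117 (1.57), and Unc5c, a netrin receptor, differed by 1.49. The other netrin receptor Dcc was higher in L2.3, at 22.7, 19.2 and 17.0 against 54.9, 81.8 and 71.6 (-1.81), as was Robo3 (-1.90), a receptor of commissural axons.

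Of 23 glycolytic genes 13 were lower and 4 higher in Ctx8, with a median of -0.30. Ldha, which makes lactate, read 1667, 1591 and 1707 in Ctx8 and 3754, 3841 and 3699 in L2.3 (-1.19 ± 0.05). Hk2, the inducible hexokinase, read 76.3, 72.2 and 63.1 against 257, 260 and 248 (-1.86), whereas its constitutive relative Hk1 was higher in Ctx8 (0.79). The lactate transporter Slc16a1 (-1.41), Pfkp (-1.36) and Pkm (-0.88) were higher in L2.3. Of 22 genes of the amino acid response and serine pathway 8 were lower and 4 higher in Ctx8. Mthfd2, a mitochondrial folate enzyme, read 39.2, 56.3 and 40.3 against 205, 219 and 243 (-2.31), and Asns, which makes asparagine, differed by -1.50.

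Of 18 cholesterol synthesis genes 8 (44.4%) were lower and 1 (5.56%) higher in Ctx8, with the isomerase Ebp furthest apart (-1.58). Over all genes 22.0% were lower and 21.2% higher. Of 23 genes of fatty acid handling 13 (56.5%) were higher and 5 (21.7%) lower. Those higher included the desaturase Fads1 at 897, 859 and 890 against 514, 498 and 482 (0.83) and the cholesterol exporter Abca1 (1.36). Among 23 IGF, retinoid and midkine genes 5 (21.7%) were higher and 6 (26.1%) lower, near the 21.2% and 22.0% of all genes. Crabp1, which binds retinoic acid in the cytoplasm, was the furthest apart, at 21.4, 29.2 and 20.2 in Ctx8 and 515, 447 and 477 in L2.3 (-4.36 ± 0.12). Aldh1a1, an enzyme that makes retinoic acid, was on the same side (-2.49), with Ctx8 near background.

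**Figure D4:**
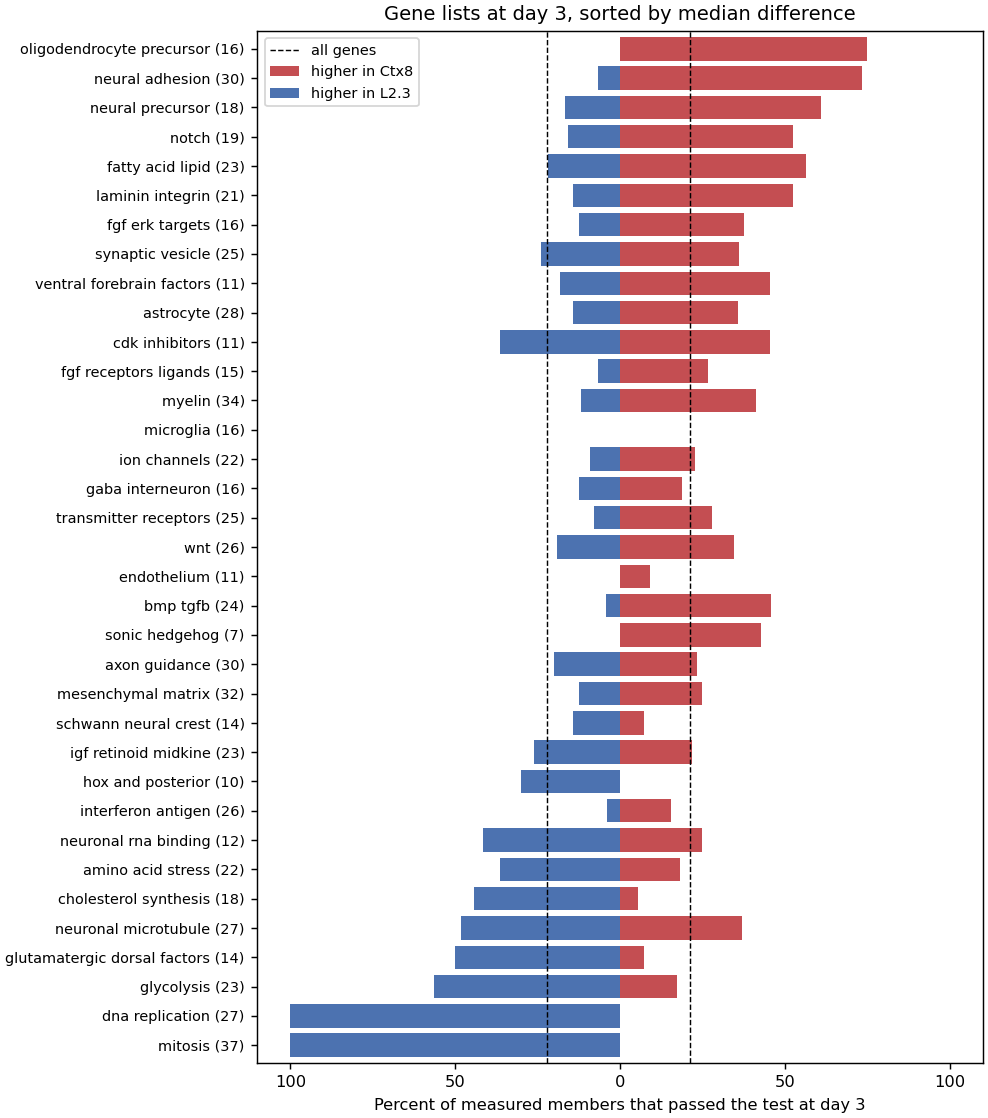
Percent of the measured members of each gene list (number in brackets) that passed the test at day 3, to the right where higher in Ctx8 and to the left where higher in L2.3, sorted by median difference. The dashed lines give the shares over all genes, 21.2% and 22.0%. Every member of the mitosis and replication lists was higher in L2.3, and 75.0% of the oligodendrocyte precursor list and 73.3% of the adhesion list were higher in Ctx8.

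The remaining genes with the 15 largest differences on each side had varied roles. Higher in L2.3 were Selenom, a selenoprotein of the endoplasmic reticulum (-5.14), Tesc, a calcium-binding protein (-4.93), Ifitm2, an interferon-induced membrane protein (-4.37), Gng3, a neuronal G protein subunit (-3.97), Chchd10, a mitochondrial protein (-3.84), and Lzts1, a leucine zipper protein (-3.80). Higher in Ctx8 were Tes, a focal adhesion protein (3.17), Oaf (2.90), Rprm, a p53-induced cell cycle inhibitor (2.85), Tafa5, a secreted peptide (2.76), S1pr3, a receptor for sphingosine-1-phosphate (2.75), Plaat3, a phospholipase and acyltransferase (2.68), B3gat2, which builds the HNK-1 carbohydrate (2.44), F3, tissue factor (2.39), Limch1, an actomyosin regulator (2.35), and P4ha3, a subunit of collagen prolyl hydroxylase (2.33). For 14 of the 30 genes the lower group was near background. The highest adjusted p among the 30 was 5.67e-14.

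Few of the 2-fold differences of day 3 were 2-fold at day 0. Before withdrawal 1629 genes passed (12.8%), 821 (6.44%) higher and 808 (6.34%) lower in Ctx8, and 152 (1.19%) were at least 2-fold apart, of which 78 (0.612%) were higher and 74 (0.580%) lower in Ctx8. Of the 325 genes at least 2-fold higher in Ctx8 at day 3, 32 (9.85%) were so at day 0, which was 41.0% of the day 0 genes. On the L2.3 side the overlap was 35 genes, 7.58% of those of day 3 and 47.3% of those of day 0. By the adjusted p alone, 197 of the 325 and 308 of the 462 had not passed at day 0. The others had passed at day 0, at any size and in either direction, where 12.8% of all genes passed. Of the 30 largest differences 11 had passed in the same direction at day 0. Tes stood apart before withdrawal, at a mean of 815 in Ctx8 and 14.4 in L2.3 (5.84), and Chchd10 at 24.9 and 299 (-3.59).

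By day 7, 6029 genes passed (47.3%), 22.6% of all genes higher and 24.7% lower in Ctx8, and 1084 (8.50%) were at least 2-fold apart, 3.73% higher and 4.78% lower. Of the genes at least 2-fold higher in Ctx8 at day 3, 249 of 325 (76.6%) were so at day 7, 52.4% of the 475 of that day. On the L2.3 side it was 387 of 462 (83.8%), 63.5% of 609. At all 3 days 25 genes were at least 2-fold higher in Ctx8 and 30 in L2.3. At days 3 and 7, with no call at day 0, there were 149 and 258. Of the 30 largest differences 29 passed in the same direction at day 7. The exception was S1pr3, which averaged 162 in Ctx8 and 23.8 in L2.3 at day 3 and 181 and 202 at day 7 (-0.17).

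Some genes turned from 1 clone to the other. Between days 0 and 3, 122 genes passed as higher in L2.3 first and in Ctx8 later, and 91 the other way, Cdkn1c (-1.64 at day 0) among the former and Cacna2d1 (0.88) and Cplx1 (0.56) among the latter. At least 2-fold apart on both days were 2 and 5 of them. Of these, Dok5, an adaptor protein of receptor kinases, went from means of 28.3 in Ctx8 and 115 in L2.3 to 639 and 242, and Evi2a, a membrane protein, from 52.7 and 125 to 179 and 50.8. The 5 that turned towards L2.3 by this limit were Tubb3, Cd24, Ina, Igfbpl1 and Pdlim1. Tubb3 averaged 29.7 in Ctx8 and 13.0 in L2.3 at day 0 and 106 and 882 at day 3. Cd24 went from 1774 and 725 to 619 and 2876.

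**Figure D5:**
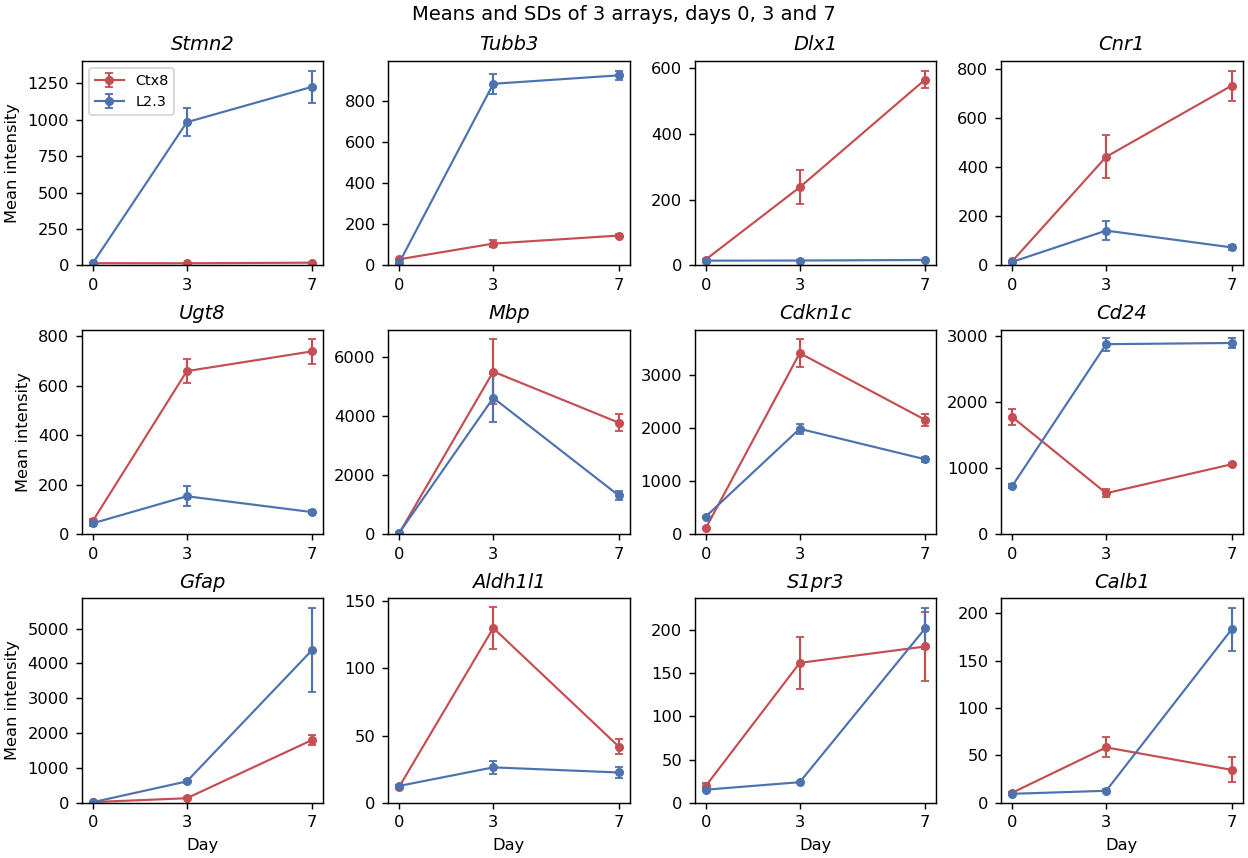
Mean intensity (vertical, linear axis from 0) with the SD of 3 arrays at days 0, 3 and 7 in Ctx8 (red) and L2.3 (blue) for 12 genes. Stmn2 and Tubb3 part at day 3 with L2.3 above, Dlx1, Cnr1 and Ugt8 with Ctx8 above, the Cd24 lines cross between days 0 and 3, and those of S1pr3 and Calb1 between days 3 and 7.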

How the data were processed

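RNA of 44 rat cultures was hybridised to Affymetrix arrays. Per the submitters' processing notes the authors used GCOS and RMA (a method that corrects background, quantile-normalizes and summarises probes), with no version or setting given. The deposited values are linear intensities with no detection call, so depth does not apply. The log2 was taken with no pseudocount.

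The table holds 24183 probe sets. The platform's annotation gives 1 gene to 17547 of them and more than 1 to 213, and 6423 carry no name in it. Gene identifiers brought 17450 symbols up to RefSeq's current table (GRCr8), and 97 stayed as annotated. A gene with several probe sets (3498 of 12749 genes) was read from the brightest, by its mean across the 44 arrays.

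Each of the 15 clone and day groups got a mean in limma 3.58.1 (R 4.3.3, lmFit and eBayes, 29 residual degrees of freedom, two-sided, Benjamini-Hochberg over all genes). The other clones thus share the estimate of the spread. The fit was checked on simulated data. No slide or scan date was used. Tables and figures used Python 3.11.15, pandas 2.3.3, numpy 2.4.6 and matplotlib 3.10.9.

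The clones and the gene lists were chosen with earlier results of these data known, and no gene list was given a test of its own. Genes are named by a fixed rule. At day 3 it took the 15 largest differences in each direction among genes that passed. It also asked for arrays that did not overlap and a mean of at least 100 in the higher group. For the change between days it took the 10 largest in each direction among genes that passed. There it asked only for a mean of at least 100 in 1 of the 4 groups. In each list it took up to 8 members that passed in each direction and up to 4 of the brightest that did not. A few lineage markers are named whatever their values. Cdc20, Pttg1, Pcna and Fgfr4, and the genes that turned from 1 clone to the other, were chosen after their values were seen. The alternatives covered normalization, the filter on dim genes, the choice of probe set, the model, a minimum fold of 1.2, 16 added before log2, and each replicate left out in turn.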

Additional observations from a re-analysis of the deposited data

Results flagged for a closer look

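The clone difference at day 3 was tested against that at day 0 in the same limma fit, and it changed for 4052 genes. The changes below are differences of differences on the log2 scale, the clone difference at day 3 minus that at day 0. Each group held 3 arrays, too few for a test of single outlying arrays.

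Among genes with a mean of at least 100 in 1 of the 4 groups, the largest changes towards L2.3 were those of Rasd2 (-6.20), Stmn2 (-6.08), Shox2 (-5.07), Selenom (-4.87), Slc17a6 (-4.43), Crabp1 (-4.41), Neurod1 (-4.33), Tubb3 (-4.25) and Htr3a (-3.91). For Stmn2 both clones averaged near background at day 0, at 15.3 in Ctx8 and 14.8 in L2.3, and at day 3 they averaged 14.9 and 982. Moxd1, a monooxygenase-like protein, changed by -4.35 in another way. It averaged 293 in Ctx8 and 10.9 in L2.3 at day 0, and 13.1 and 9.9 at day 3.

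The largest changes towards Ctx8 were those of Dlx1 (3.65), Dok5 (3.42), Evi2a (3.13), Oaf (2.86), Palmd (2.81), Tmem35a (2.74), Ctnna2 (2.64), Plaat3 (2.51), Pcdh9 (2.46) and Cdkn1c (2.42). Palmd, a paralemmin relative, averaged 183 in L2.3 at day 0 and 17.6 at day 3, against 17.5 and 11.8 in Ctx8, so its difference was mainly one of day 0. Tmem35a, a chaperone of nicotinic receptors, averaged 32.6 in Ctx8 and 55.7 in L2.3 at day 0 and 486 and 124 at day 3. Cdkn1c was higher in L2.3 at day 0, at 328 against 106, and both clones were higher at day 3, at 1985 in L2.3 and 3412 in Ctx8.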

How the results depend on the processing

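Counts of genes that passed were 5514 at day 3, 1629 at day 0, 6029 at day 7 and 4052 for the change between days 0 and 3. The setting that moved them most was a test against a minimum fold of 1.2, which left 2639, 408, 3190 and 1702. It also left 14 of the 22 adhesion genes higher in Ctx8, and 59 of the 64 cell cycle genes lower. Without 1 replicate the counts were 5035 to 5126, 1215 to 1366, 5514 to 5770 and 3672 to 3817, and 62 or 63 of the 64 cell cycle genes stayed lower. With the arrays brought to a common median, 43.4% of the 5581 genes that passed at day 3 were higher in Ctx8, against 49.1%, and the median of all genes moved from -0.012 to -0.052. Members of the gene lists that passed numbered 401, and 294 at the minimum fold of 1.2. Over all 12749 genes these counts were 5514 (43.3%) and 2639. The lists were chosen with earlier results of these data known, so their counts are not read as an excess over all genes.

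Same-numbered cultures of the clones deviated from their group means with correlations of -0.024, 0.013 and -0.025 at day 3. The values were -0.001, 0.054 and 0.059 at day 0 and -0.02, -0.007 and 0.02 at day 7. Such correlations cannot show whether same-numbered cultures were handled together, and the number was left out of the main fit. With the number as a replicate block 5526, 1656, 6042 and 4064 genes passed.

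Of 165 genes named, 158 passed at day 3. Over all alternatives 2780 of 2804 values kept their direction and their side of the threshold, 16 values of 5 genes no longer passed (Aqp4, Gad2, Map2, Moxd1 and Smo), Nes passed when the fit was restricted to the groups compared (adjusted p = 0.0312, limma), Sox10 passed without L2.3 replicate 2 (0.0231), Fgfr1 passed under 6 alternatives, and none reversed. Moxd1 at day 3 lost its call without Ctx8 replicate 3 (0.109) or L2.3 replicate 1 (0.0531). These genes had 87 further probe sets, of which 62 gave the same call, none the opposite one, and 25 differed in whether they passed, 18 of these dim. Where a clone was near background, that background limits the fold.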

Other observations

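Gene groups of cells outside the neural lineages were mostly dim at day 3, with a few members that separated the clones. Of 32 mesenchymal and matrix genes 8 (25.0%) were higher and 4 (12.5%) lower in Ctx8 by limma's test. Over all genes the shares were 21.2% and 22.0%. The median of the 32 genes was 0.02, and 17 were near background in both clones. Tagln, an actin-binding protein of smooth muscle, read 126, 155 and 127 in Ctx8 and 41.6, 36.3 and 28.0 in L2.3, a difference of 1.96. Sparc, a secreted matrix protein also made by astrocytes, was bright in both clones, at 2446, 2506 and 2445 against 1490, 1388 and 1369 (0.80). Fibronectin, Fn1, was on the other side, at 48.7, 57.7 and 53.0 against 104, 122 and 107 (-1.06). Fbln2, a fibulin of the matrix, was lower in Ctx8 at day 3 (-1.23) and higher at day 7 (1.32).

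Of 14 Schwann cell and neural crest genes 1 was higher and 2 were lower in Ctx8, with 10 near background. The 1 higher was Pmp22, a membrane protein of peripheral myelin that other cells also make, at 539, 694 and 634 against 376, 435 and 405 (0.61). It was lower in Ctx8 at day 0 (-1.36) and at day 7 (-0.77). None of 16 microglia genes passed limma's test, 1 was higher and 1 lower at an unadjusted p below 0.05, and 13 were near background. Of 11 endothelial genes 1 was higher in Ctx8, and 9 were near background. Of 26 genes of the interferon response and antigen presentation 4 were higher and 1 lower, with 18 near background. Mx2, an interferon-induced GTPase, read 120, 104 and 112 in Ctx8 and 29.8, 28.0 and 29.5 in L2.3 (1.94). It had not passed at day 0 (0.22).

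The binding proteins Igfbp2 and Igfbp5 of the insulin-like growth factors lay on opposite sides. Igfbp2 read 644, 713 and 665 in Ctx8 against 1236, 1232 and 1213 in L2.3 (-0.87), and Igfbp5 845, 774 and 820 against 483, 525 and 515 (0.68).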
